A study of Mus musculus with 32 samples.

Results

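The genes described here are 33 genes of fatty acid oxidation and targets of the nuclear receptor PPAR-alpha, read in mouse liver during the response to lipopolysaccharide (LPS, the bacterial endotoxin). They were chosen by name: the gene name on the array had to equal a listed member. All 33 were found among the 27827 gene names on the array, and all 33 were among the 19199 names kept after a filter on dim probes. Each liver was read on 1 Agilent 1-colour array, and 32 mice were used. Knockout mice carried the genotype E2F1-/- and a strain label that joins B6;129 to E2F1-/-, and wild-type mice carried the genotype E2F1+/+ and the strain label B6x126 F2, so genotype and strain label cannot be told apart. E2f1 encodes a transcription factor that acts at the entry into S phase. Saline was given to 6 knockouts and 6 wild-type mice, LPS with collection at 6 h to 4 knockouts and 4 wild-type mice, and LPS with collection at 20 h to 6 knockouts and 6 wild-type mice. LPS was given systemically. The saline livers are labelled 20 h, so 6 h LPS and saline livers also differ in collection time. The sources used here do not give age, sex, dose or the deleted part of E2f1.

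The liver takes up fatty acids, binds them in the cytosol, activates them to acyl-CoA esters and carries them into mitochondria on carnitine. There the beta-oxidation cycle shortens them and passes electrons through the electron transfer flavoproteins to the respiratory chain, and the acetyl-CoA formed can leave the liver as ketone bodies. Peroxisomes and microsomal omega-hydroxylases handle other fatty acids, and thioesterases split acyl-CoA back to the free acid. PPAR-alpha is activated by fatty acids and raises many of these genes in fasting. It binds DNA together with the retinoid X receptor at repeats of the hexamer AGGTCA spaced by 1 base.

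The promoters of 27 members, 30 promoters in all, were found in the RefSeq table (GRCm38.p6). The spaced repeat with a free base in each hexamer (AGGNCA, 1 base of any kind, AGGNCA) was searched on both strands of the 250 bases before each gene start. It was found in 1 of the 30, that of Fabp1, and in 0.338% of all 32851 promoters. The perfect repeat (AGGTCA, 1 base of any kind, AGGTCA) was found in 0 of the 30 and in 0.0335% of all. The single hexamer AGGTCA, which overlaps both, was found in 6 of the 30 (20%) and in 14.0% of all promoters, those of Acadm, Acadvl, Acot4, Cd36, Cpt1a and Fabp1. Shown for 4 of these genes, 2 that fell after LPS (Fabp1, Acadm), 1 that rose in wild type (Cd36) and 1 that was not called (Cpt1a), are the 250 bases before the start, with matches in capitals. A match is a description of letters, not a bound site.
Fabp1 (chr6:71199629-71199878, plus strand): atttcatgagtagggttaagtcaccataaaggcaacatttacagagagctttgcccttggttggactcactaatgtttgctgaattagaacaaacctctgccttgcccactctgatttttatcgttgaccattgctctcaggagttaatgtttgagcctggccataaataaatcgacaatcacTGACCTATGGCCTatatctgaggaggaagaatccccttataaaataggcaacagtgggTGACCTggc
Acadm (chr3:153944644-153944893, minus strand): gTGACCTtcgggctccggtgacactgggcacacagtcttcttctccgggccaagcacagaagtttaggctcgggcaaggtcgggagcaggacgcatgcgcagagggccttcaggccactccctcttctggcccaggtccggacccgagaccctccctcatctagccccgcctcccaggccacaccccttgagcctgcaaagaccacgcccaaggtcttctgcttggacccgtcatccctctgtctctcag
Cpt1a (chr19:3323051-3323300, plus strand): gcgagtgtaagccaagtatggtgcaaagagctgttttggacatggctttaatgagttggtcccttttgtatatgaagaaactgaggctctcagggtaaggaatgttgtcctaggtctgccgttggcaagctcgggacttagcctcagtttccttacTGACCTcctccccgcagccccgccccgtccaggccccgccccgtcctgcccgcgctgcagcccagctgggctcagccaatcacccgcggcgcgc
Cd36 (chr5:17835897-17836146, minus strand): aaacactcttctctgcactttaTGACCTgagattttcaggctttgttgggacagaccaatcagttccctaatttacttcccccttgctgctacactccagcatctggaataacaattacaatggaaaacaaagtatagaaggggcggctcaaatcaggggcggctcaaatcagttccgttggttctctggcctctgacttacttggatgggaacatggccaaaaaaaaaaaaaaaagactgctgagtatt
All matches shown lie on the strand opposite to the gene, so they read TGACCT here. The spaced repeat of Fabp1 covers bases 67 to 55 before the start.

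Levels are log2 processed signals minus the 75th percentile of the same array, which ranged from 281 to 1144 signal units, and each array had between 20203 and 28891 spots above background. The labels name liver and their extraction protocol lung: all 8 hepatocyte markers stood well above background on every array, with Alb between 9.18 and 11.2, while 3 of 6 lung markers passed the filter, on 15 to 29 of the 32 arrays, and 2 of them rose at 20 h in each genotype. E2f1 averaged −3.23 ± 0.81 (SD, n = 6) in knockouts and −3.35 ± 1.01 (SD, n = 6) in wild type on saline. At 6 h it averaged −2.30 ± 0.56 and −3.83 ± 0.43 (SD, n = 4 each). At 20 h it averaged −2.05 ± 1.57 (SD, n = 6) in knockouts and −5.57 ± 0.88 (SD, n = 5) in wild type. With the deleted part not given, it is no check of the deletion. A trio of knockout arrays stood apart from their groups on scores along the wild-type responses, computed without the 33 genes (0 for the wild-type saline mean, 1 for the wild-type LPS mean). On the 6 h score KO saline replicate 1 reached 0.886, against 0.0568 at most in the other KO saline arrays, and KO LPS 6 h replicate 1 reached 0.126, against at least 0.896 in its group. On the 20 h score KO LPS 20 h replicate 4 reached 0.357, against at least 0.960 in its group. Both arrays apart on the 6 h score came from slide 8, at positions 1 and 2. On the saline one the summed level of 7 neutrophil markers was 8.34, against at most 1.44 elsewhere in its group. On the LPS one it was 3.12, against at least 7.24. On the array apart on the 20 h score it was 7.38, inside the 6.09 to 7.39 of its group. Whether labels were exchanged was not tested. These 3 arrays were kept under their labels, and results are also given without them, a choice made after seeing the data. Neutrophil markers rose in all 4 comparisons of LPS with saline (7 of 7 each), and at 20 h 4 of 5 Kupffer cell and 4 (knockout) or 5 (wild type) of 8 hepatocyte markers fell, while the fifth Kupffer cell marker, Marco, rose by 3.16 in knockouts and 3.04 in wild type; their part in the results below was not tested. In whole liver, fewer hepatocytes and less RNA per hepatocyte cannot be told apart.

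At 20 h after LPS the genes moved in both directions. Acsl1, Fabp1, Etfa, Bdh1, Acot1 and 5 (knockout) or 6 (wild type) of 9 mitochondrial beta-oxidation genes fell, while Pdk4, Angptl4, Acot2 and Acot3 rose in both genotypes and Acadl, of the same cycle, in wild type. In knockouts 14 of the 33 were called by limma at an adjusted p of 0.05, 10 lower (14.6% of all genes were called lower) and 4 higher (11.7% of all genes). In wild type 19 were called, 12 lower (20.2% of all genes) and 7 higher (16.3% of all genes). The median log2 change over the 33 genes was −0.28 in knockouts (−0.09 over all genes tested) and −0.24 in wild type (−0.03 over all genes). All 10 genes called lower and all 4 called higher in knockouts were called the same way in wild type. The share of all genes called the same way in both genotypes is not given, so this agreement cannot be set against it. The groups did not overlap for 3 genes in knockouts, all lower (2.35% of all genes), and in wild type for 8 lower (13.0%) and 5 higher genes (9.25%). Without the 3 arrays 15 genes were called in knockouts, 10 lower and 5 higher, where 41.1% of all genes were called. Arrays were scanned on 3 dates. Of the genes called at 20 h over all arrays, the change within a date had the same sign for 14, 12 and 14 of 14 in knockouts. It did so for 19 and 19 of 19 in wild type on the dates with WT saline arrays. The same arrays gave the calls, so these signs are no independent check of them.

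At 6 h few of the genes were called. The median log2 change over the 33 genes was 0.03 in knockouts (−0.03 over all genes tested) and 0.26 in wild type (0.006 over all genes). Of the 33 changes, 19 were positive in knockouts and 25 in wild type. In wild type 5 of the 33 were called, all higher: Vnn1, Acot3, Acot2, Acaa1a and Acadl (12.4% of all genes were called higher and 16.1% lower). In knockouts limma called 0 of the 33, with 3 at an unadjusted p under 0.05, where 2.60% of all genes were called in either direction. Without the 3 arrays that count was 5 in knockouts (31.2% of all genes), namely Vnn1 (log2 1.78 ± 0.37 SE, adjusted p = 0.000418), Angptl4 (1.30) and Acaa1a (0.98) higher and Fgf21 (−3.57) and Acot4 (−1.56) lower. The size of the Fgf21 change is not exact, since 2 of the 3 LPS arrays left, replicates 2 and 4, were not well above background. The 6 h and 20 h comparisons of a genotype share their saline arrays. Leaving out KO saline replicate 1 alone gave 2 called genes, Acaa1a (log2 0.92) and Vnn1 (1.55), and leaving out KO LPS 6 h replicate 1 alone gave Vnn1 (1.41).

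**Figure D1:**
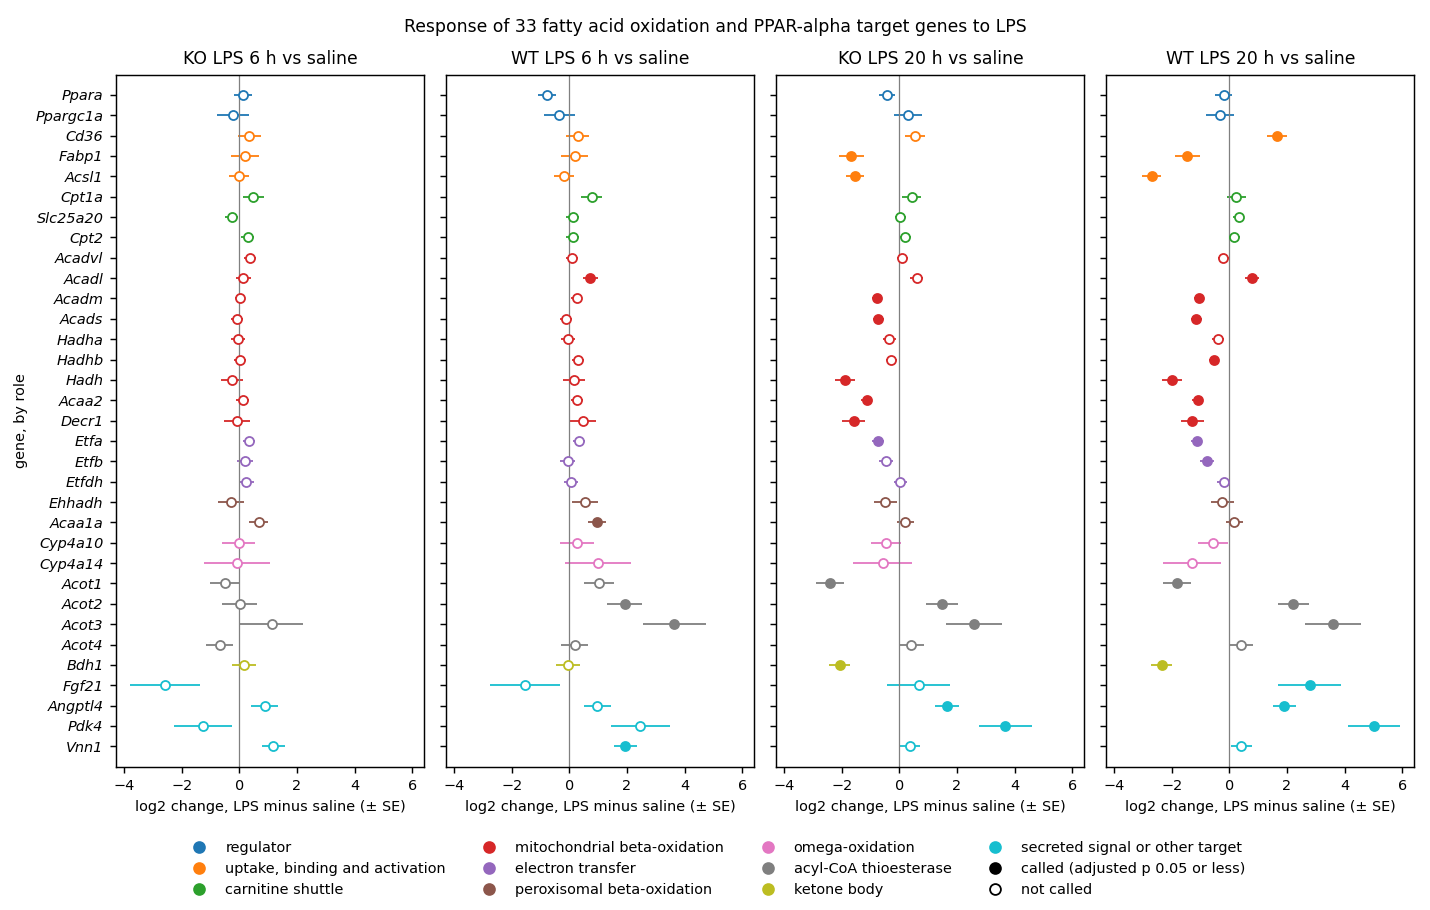
Log2 change ± moderated SE of each of the 33 genes (rows, coloured by role) after LPS against saline, at 6 h and 20 h, with knockouts left of wild type (4 to 6 arrays a group). Filled points were called at an adjusted p of 0.05: 0 and 5 at 6 h, 14 and 19 at 20 h.

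Ppara itself, the receptor, was called in none of the comparisons over 32 arrays. Its level on wild-type arrays at 6 h was 3.0, 2.77, 2.61 and 2.66, against 2.82 to 3.99 (median 3.58) on wild-type saline arrays, a log2 change of −0.77 ± 0.32 (SE, adjusted p = 0.072). It was called lower there when WT saline replicate 4 was left out (−0.92, adjusted p = 0.037), and without the 3 arrays that stand apart, with 34.5% of all genes called (−0.77, adjusted p = 0.0137). On knockout arrays at 6 h it was 5.13, 3.19, 3.32 and 2.91, and the highest value belongs to replicate 1, which stands apart. Ppargc1a, a coactivator of PPAR-alpha, changed by −0.35 to 0.29 in the 4 comparisons with saline and was not called.

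Among uptake, binding and activation genes, Acsl1, which activates long-chain fatty acids, fell furthest in wild type. On the probe on chromosome 8 (mm9, 47621232 to 47621291) it lay between 4.32 and 5.89 (median 4.63) on wild-type arrays at 20 h, against 6.98 to 8.07 (median 7.46) on wild-type saline arrays. In knockouts it lay between 4.73 and 6.86 (median 5.31) at 20 h, against 6.24 to 7.44 (median 7.07) on saline. The wild-type groups did not overlap, and the knockout groups did, through replicate 4 at 20 h. The fall was 2.89-fold in knockouts (log2 −1.53 ± 0.32 SE, adjusted p = 0.000752) and 6.52-fold in wild type (−2.70 ± 0.32, adjusted p = 3.36e-07). The difference between those responses was 1.17 ± 0.45 with an adjusted p of 0.61, so it did not pass the test. Without the 3 arrays the knockout change was −1.96.

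Fabp1, the fatty acid binding protein of the hepatocyte cytosol, lay between 6.46 and 9.73 (median 7.69) on knockout arrays at 20 h, against 8.98 to 10.48 (median 9.58) on saline. In wild type it lay between 7.44 and 9.0 (median 8.0), against 8.67 to 10.20 (median 9.65). Both pairs of groups overlapped, and the falls were 3.18-fold (adjusted p = 0.00448) and 2.75-fold (adjusted p = 0.00807). It is the brightest of the 33 and reached 99.2% of the scanner ceiling, with 3 arrays at 95% or more, so high levels may be compressed. Cd36, a fatty acid uptake receptor, rose in wild type. There it lay between −0.07 and 2.58 (median 1.65) at 20 h, against −1.01 to 0.13 (median −0.17) on saline, a 3.15-fold rise (log2 1.66 ± 0.36, adjusted p = 0.000605). Its change in knockouts was 0.54 ± 0.36 (adjusted p = 0.28), and the difference of the responses, −1.12 ± 0.51, had an adjusted p of 0.71. The second Cd36 probe gave 0.36 in knockouts and 1.19 in wild type.

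**Figure D2:**
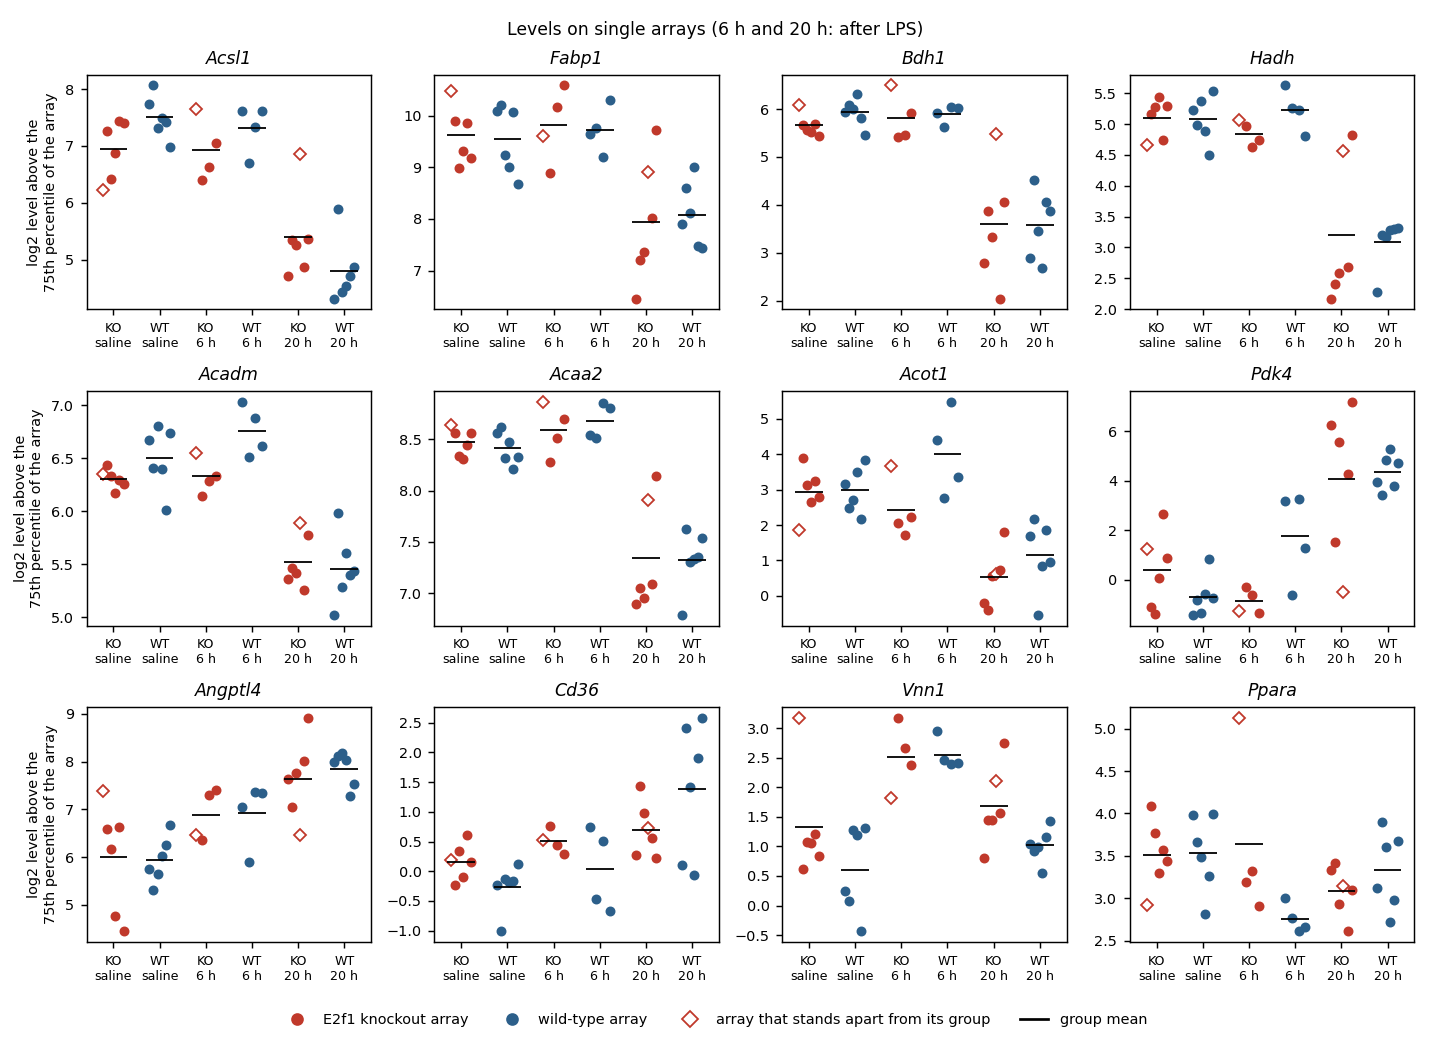
Levels of 12 of the genes on every array, as log2 above the 75th percentile of the array, for saline, 6 h and 20 h of LPS with knockouts (red) left of wild type (blue). Black lines are group means, and open diamonds are the 3 arrays that stand apart; in wild type the 20 h arrays of Acsl1, Bdh1 and Hadh all lie below the saline arrays, and those of Pdk4 all lie above them.

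The carnitine shuttle did not pass the test at either time. Cpt1a, the carnitine palmitoyltransferase of the outer mitochondrial membrane, changed by 0.43 ± 0.33 in knockouts and 0.24 ± 0.33 in wild type at 20 h. Cpt2 of the inner membrane changed by 0.19 and 0.17, and the carnitine carrier Slc25a20 by 0.03 and 0.32. Cpt1a ranged from 3.95 to 6.25 on knockout arrays and from 4.60 to 5.66 on wild-type arrays at 20 h, wider than the shifts of its means. At 6 h it changed by 0.48 in knockouts and 0.78 in wild type, and by 0.43 and 0.66 on its second probe. Wild-type arrays at 6 h lay between 5.42 and 5.97, against 4.20 to 5.59 on saline.

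Of 9 genes of the mitochondrial beta-oxidation cycle, 5 fell in knockouts and 6 fell in wild type at 20 h, 1 rose in wild type, and the rest were not called. Hadh, the short-chain hydroxyacyl-CoA dehydrogenase, fell most. It lay between 2.17 and 4.82 (median 2.64) on knockout arrays at 20 h, against 4.67 to 5.43 (median 5.22) on saline, and between 2.28 and 3.31 (median 3.25) on wild-type arrays, against 4.49 to 5.53 (median 5.10). Knockout replicates 4 and 6 read 4.56 and 4.82, close to the lowest saline value, while the other 4 lay at or below 2.69. The falls were 3.71-fold in knockouts (adjusted p = 0.000176) and 3.97-fold in wild type (adjusted p = 4.1e-05).

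Acadm, the medium-chain acyl-CoA dehydrogenase, separated the groups fully in both genotypes. It lay between 5.26 and 5.89 on knockout arrays at 20 h, against 6.17 to 6.44 on saline, and between 5.02 and 5.99 on wild-type arrays, against 6.02 to 6.81. Its falls were 1.72-fold in knockouts (log2 −0.78 ± 0.17, adjusted p = 0.0009) and 2.07-fold in wild type (−1.05 ± 0.17, adjusted p = 1.58e-05). Acaa2, the thiolase that closes the cycle, also separated the groups: it lay between 6.90 and 8.14 against 8.30 to 8.63 on saline in knockouts, and between 6.79 and 7.63 against 8.21 to 8.62 in wild type. It fell 2.19-fold in knockouts and 2.13-fold in wild type. Its spread between arrays was the smallest of the 33, with a median SD of 0.21 over the 6 groups. Acads, the short-chain dehydrogenase, fell by 0.73 in knockouts and 1.15 in wild type on the log2 scale, and Decr1, which handles unsaturated fatty acids, fell by 1.58 and 1.29.

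Acadl, the long-chain dehydrogenase, rose in wild type by 0.78 ± 0.23 (adjusted p = 0.00928), with all 20 h arrays between 3.69 and 3.90, against 2.63 to 3.43 on saline. In knockouts its change of 0.60 ± 0.23 missed the threshold (adjusted p = 0.056), and passed it without the 3 arrays (0.88, adjusted p = 0.00122), as it did without KO LPS 20 h replicate 4 (0.84) or KO saline replicate 1 (0.64) or 3 (0.70). At 6 h in wild type it rose by 0.73 ± 0.26 (adjusted p = 0.0353), a call that ended when any of 6 arrays was left out: WT saline replicates 1, 2 or 5 or WT LPS 6 h replicates 1, 2 or 3 (0.65 to 0.74). Acadvl, the very-long-chain dehydrogenase, changed by 0.10 and −0.21. Hadha and Hadhb encode the subunits of the trifunctional protein from starts that lie 273 bases apart in GRCm38.p6 and point away from each other. Hadhb changed by −0.28 ± 0.18 in knockouts and fell by 0.53 ± 0.18 in wild type (adjusted p = 0.0227), a call lost when any of WT saline replicates 3 or 4 or WT LPS 20 h replicates 1 or 4 was left out (changes of −0.46, −0.48, −0.49 and −0.43). Hadha changed by −0.34 and −0.40 on the probe used, and was called lower in wild type without WT LPS 20 h replicate 6 (−0.55, adjusted p = 0.043); its second probe, −3.32 on average on wild-type saline arrays, gave −0.17 and 1.19.

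Electrons from the cycle pass through the flavoprotein of Etfa and Etfb to Etfdh. Etfa fell 1.67-fold in knockouts (log2 −0.74 ± 0.19, adjusted p = 0.00551) and 2.20-fold in wild type (−1.14 ± 0.19, adjusted p = 4.43e-05). It lay between 4.23 and 5.31 on knockout arrays at 20 h, against 5.24 to 5.63 on saline, and between 4.0 and 4.95 on wild-type arrays, against 5.24 to 5.85. The wild-type groups did not overlap, and the knockout groups did. Etfb fell in wild type by 0.77 ± 0.24 and changed by −0.46 ± 0.24 in knockouts, and Etfdh changed by 0.03 and −0.19.

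Bdh1, which interconverts the ketone bodies acetoacetate and beta-hydroxybutyrate, fell in both genotypes. It lay between 2.04 and 5.48 (median 3.59) on knockout arrays at 20 h, against 5.44 to 6.09 (median 5.61) on saline. On wild-type arrays it lay between 2.68 and 4.52 (median 3.66), against 5.45 to 6.32 (median 5.97). The one knockout array that reached the saline range is replicate 4. The falls were 4.20-fold in knockouts (log2 −2.07 ± 0.37, adjusted p = 0.000161) and 5.12-fold in wild type (−2.36 ± 0.37, adjusted p = 1.36e-05), and the second probe gave −2.44 and −2.54.

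Peroxisomal and omega-oxidation genes, the classical targets of PPAR-alpha agonists in rodents, were mostly not called. Ehhadh, the peroxisomal bifunctional enzyme, changed by −0.49 in knockouts and −0.24 in wild type at 20 h, and the omega-hydroxylases Cyp4a10 and Cyp4a14 by −0.45 and −0.58 in knockouts and by −0.57 and −1.30 in wild type. The other Cyp4a10 probes gave −0.26, −1.19 and −0.52 in knockouts and −0.05, −1.18 and −0.14 in wild type. Cyp4a14 spread most of the 33 genes, with a median SD of 1.85 over the groups, and ranged from 0.80 to 5.23 on wild-type saline arrays alone. Acaa1a, the peroxisomal thiolase, depended on the probe. Its brightest probe rose at 6 h in wild type, with arrays at 7.63, 7.69, 7.96 and 8.11, against 5.91 to 7.50 (median 7.03) on saline (log2 0.96 ± 0.33, adjusted p = 0.0259). The call was lost without WT saline replicate 3 (0.77) and without WT LPS 6 h replicate 3 (0.93) or 4 (0.87). At 20 h that probe gave 0.21 in knockouts and 0.17 in wild type, but the other probes gave −1.15 and −1.59 in knockouts and −0.87 and −1.06 in wild type. The mean over the 3 probes was called lower in knockouts at 20 h (−0.85, adjusted p = 0.00938).

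**Figure D3:**
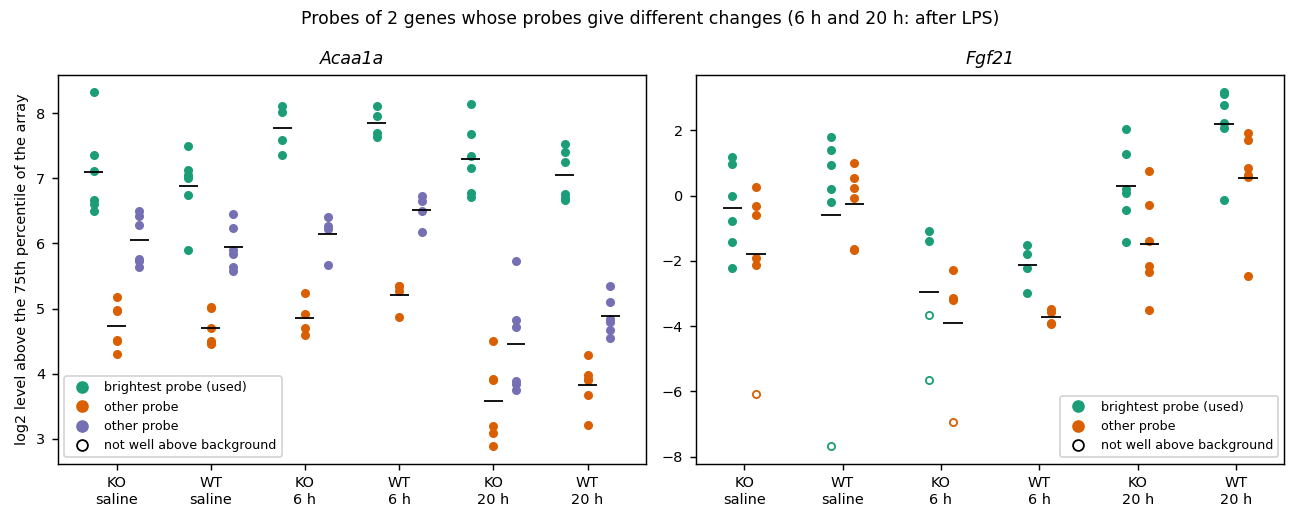
Levels of every probe of Acaa1a and Fgf21 on every array, as log2 above the 75th percentile of the array, with knockouts left of wild type; black lines are group means and open points were not well above background. At 20 h the brightest Acaa1a probe stays near saline while its other probes are lower, and 1 wild-type saline array of the brightest Fgf21 probe lies at −7.67.

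The 4 acyl-CoA thioesterases lie side by side on chromosome 12, with probes (mm9) at 85334071 for Acot2, 85358452 for Acot1, 85384821 for Acot4 and 85399588 for Acot3. These genes are close paralogs, and how far a probe reads a neighbour was not tested. Acot1, the cytosolic enzyme, fell at 20 h, while Acot2, the mitochondrial one, and the peroxisomal Acot3 rose. Acot1 lay between −0.39 and 1.81 (median 0.58) on knockout arrays at 20 h, against 1.85 to 3.88 (median 2.96) on saline. On wild-type arrays it lay between −0.54 and 2.17 (median 1.32), against 2.18 to 3.84 (median 2.94). Neither pair of groups overlapped, and the falls were 5.30-fold in knockouts (log2 −2.41 ± 0.47, adjusted p = 0.000436) and 3.52-fold in wild type (−1.82 ± 0.47, adjusted p = 0.00325).

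Acot2 and Acot3 were dim on saline, well above background on 4 and 3 of 6 knockout arrays and on 3 and 3 of 6 wild-type arrays, so the sizes of their changes are not exact. Acot3 lay between −5.87 and 0.27 (median −0.99) on knockout arrays at 20 h, against −6.60 to −0.52 (median −4.80) on saline, and between −2.93 and 0.62 (median −1.0) on wild-type arrays, against −5.82 to −3.57 (median −4.43). Its change was 2.58 ± 0.97 in knockouts (adjusted p = 0.0486) and 3.61 ± 0.97 in wild type (adjusted p = 0.00437). Acot2 changed by 1.49 ± 0.55 (adjusted p = 0.0444) and 2.22 ± 0.55 (adjusted p = 0.00218). The knockout calls were lost when 1 of 8 (Acot2) or 9 (Acot3) of the 12 knockout arrays was left out, with changes of 1.17 to 1.58 and 2.09 to 2.64, and kept without the 3 arrays that stand apart (1.65 and 3.12). At 6 h both rose in wild type, Acot2 by 1.92 and Acot3 by 3.65; without WT LPS 6 h replicate 1 or 3 neither passed (1.76 and 1.48 for Acot2, 3.18 and 2.97 for Acot3). Acot4 changed by 0.42 and 0.41 at 20 h and was not called.

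The remaining targets include genes that act on other tissues or on glucose use. Pdk4, the kinase that shuts pyruvate dehydrogenase, rose most of the 33 genes at 20 h. It lay between −0.49 and 7.20 (median 4.93) on knockout arrays, against −1.40 to 2.65 (median 0.46) on saline, and between 3.44 and 5.28 (median 4.34) on wild-type arrays, against −1.43 to 0.83 (median −0.79). At 6 h its change in wild type, 2.46 ± 1.02, missed the threshold (adjusted p = 0.071) and passed it without WT LPS 6 h replicate 2 (3.26, adjusted p = 0.0286). At 20 h the rise was 12.8-fold in knockouts (log2 3.68 ± 0.91, adjusted p = 0.00361) and 32.5-fold in wild type (5.02 ± 0.91, adjusted p = 8.99e-05). The knockout array at −0.49 is replicate 4, and without the 3 arrays the knockout change was 4.76 ± 0.85. The knockout saline array at 2.65 is replicate 5, in which the summed level of 3 skeletal muscle markers was 5.43 and of 3 adipocyte markers 4.99, against at most −1.16 and 0.54 on the other KO saline arrays; the part of other tissue in that value was not tested. In the LPS groups at 20 h the muscle sum stayed at or below −2.08 in knockouts and −1.13 in wild type.

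Angptl4, a secreted inhibitor of lipoprotein lipase, lay between 6.47 and 8.92 (median 7.70) on knockout arrays at 20 h, against 4.45 to 7.39 (median 6.38) on saline. On wild-type arrays it lay between 7.27 and 8.17 (median 8.02), against 5.32 to 6.67 (median 5.89). It rose 3.12-fold in knockouts (adjusted p = 0.00419) and 3.76-fold in wild type (adjusted p = 0.000638), and the wild-type groups did not overlap. Vnn1, a pantetheinase that releases cysteamine, had an early change: wild-type arrays at 6 h stood at 2.96, 2.45, 2.39 and 2.41, against −0.44 to 1.31 (median 0.72) on saline, a 3.85-fold rise (log2 1.94 ± 0.41, adjusted p = 0.000633). In knockouts its change at 6 h was 1.18 ± 0.41 (adjusted p = 0.0898) over all arrays. The wild-type call at 6 h was kept whichever single array of the groups compared was left out. At 20 h it was not called, with changes of 0.36 in knockouts and 0.41 in wild type.

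Fgf21, a hormone of the fasted liver, had a lower mean at 6 h and a higher mean at 20 h than on saline, with a wide spread. On wild-type arrays it was −2.21, −1.52, −2.98 and −1.78 at 6 h and between −0.13 and 3.17 (median 2.51) at 20 h, against −7.67 to 1.82 (median 0.58) on saline. The saline value of −7.67, replicate 3, was not well above background, while the second probe read 0.54 on that array. With it, wild type changed by 2.79 ± 1.09 at 20 h with an adjusted p of 0.0439, and by −1.55 ± 1.21 at 6 h with an adjusted p of 0.37. Without it, the 20 h change was 1.37 (adjusted p = 0.16) and the 6 h change −2.96 (adjusted p = 0.00812). The 20 h call also ended without WT saline replicate 5 or any of WT LPS 20 h replicates 1, 2, 3, 5 and 6 (changes of 2.60 to 2.87). The second probe gave 0.80 at 20 h and −3.46 at 6 h in wild type. In knockouts Fgf21 was −1.08, −5.66, −1.38 and −3.67 at 6 h and between −1.42 and 2.04 (median 0.15) at 20 h, against −2.23 to 1.20 (median −0.39) on saline. The knockout values at 6 h of −5.66 and −3.67 were not well above background.

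Between 20 h and 6 h of LPS, 11 of the 33 genes were called in knockouts, 10 lower (8.28% of all genes) and 1 higher (7.31% of all genes). In wild type 15 were called, 13 lower (17.3% of all genes) and 2 higher (17.0% of all genes). Without the 3 arrays the counts were 16 in knockouts, 10 lower and 6 higher (26.5% of all genes called), and 17 in wild type, 14 lower and 3 higher (40.9%). The change of Fgf21 at 20 h against 6 h was 3.24 ± 1.21 in knockouts (adjusted p = 0.0676) and 4.33 ± 1.21 in wild type (adjusted p = 0.00626). The knockout value passed the threshold without KO LPS 6 h replicate 1 (3.87, adjusted p = 0.0389) or KO LPS 20 h replicate 4 (3.59, adjusted p = 0.0419). The change of Pdk4 was 4.94 ± 1.02 in knockouts (adjusted p = 0.00148) and 2.56 ± 1.02 in wild type (adjusted p = 0.0521). The wild-type value passed without WT LPS 6 h replicate 1 or 3 or WT LPS 20 h replicate 2 (3.02, 3.05 and 2.74). Both also passed without the 3 arrays that stand apart, at 4.21 for Fgf21 in knockouts (adjusted p = 0.0221) and 2.56 for Pdk4 in wild type (adjusted p = 0.0195). Acot1 was lower at 20 h by 1.90 in knockouts and 2.84 in wild type; without KO LPS 6 h replicate 1, which read 3.66 beside 2.05, 1.73 and 2.23, the knockout change was −1.48 (adjusted p = 0.0604). Other calls that ended without 1 array were Acads in knockouts (KO LPS 6 h replicates 3 or 4, KO LPS 20 h replicates 1, 2, 3 or 5; −0.63 to −0.55), Decr1 in knockouts (KO LPS 6 h replicates 1 or 4, KO LPS 20 h replicates 1 or 5; −1.51 to −1.24) and Etfb in wild type (WT LPS 6 h replicates 3 or 4, WT LPS 20 h replicates 3, 4, 5 or 6; −0.70 to −0.53).

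Knockouts and wild type were then compared directly. None of the 33 genes differed by limma on saline (0.333% of all genes called; 0 of the 33 at an unadjusted p under 0.05), at 6 h (1.23% of all genes; 6 of the 33 unadjusted) or at 20 h (0.323% of all genes; 0 unadjusted). The responses to LPS differed between genotypes for 0 of the 33 at 6 h (0.141% of all genes; 3 unadjusted) and 0 at 20 h (0.0417% of all genes; 2 unadjusted). With array weights, 3 of the 33 were called lower in knockouts at 6 h, and the share of all genes called in that setting is not given. Over all arrays without weights, the moderated SE of a genotype difference was between 0.17 and 1.09 at 20 h and between 0.20 and 1.33 at 6 h. At 6 h 27 of the 33 were lower in knockouts in their means and 6 higher, with a median of −0.28 (−0.03 over all genes). These counts were 20 and 13 with arrays centred on their medians. They were 27 and 6 with quantile normalization, also after another background correction, and 28 and 5 with the authors' deposited values. The genes were read on the same arrays, so their signs are not independent.

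The lower means at 6 h were largest in Pdk4, Cyp4a14 and the thioesterases. Pdk4 was −1.26, −0.31, −0.61 and −1.33 on knockout arrays, against 3.17, −0.61, 3.25 and 1.30 on wild-type arrays (−2.66 ± 1.12, adjusted p = 0.32). Acot1 was 3.66, 2.05, 1.73 and 2.23 against 4.40, 2.76, 5.49 and 3.37 (−1.59 ± 0.58, adjusted p = 0.21), and Acot2 was −3.48, −4.65, −3.49 and −3.64 against −1.38, −1.92, −0.54 and −3.65 (−1.95 ± 0.67, adjusted p = 0.18). Within wild type, replicates 1 and 3 read highest in all 3 of these genes, and replicates 2 and 4 lay nearer the knockouts. Acadl was the 1 member whose groups did not overlap, with 3.36, 3.01, 2.94 and 3.32 against 3.91, 3.72, 3.77 and 3.57 (3.03% of all genes did not overlap in that direction), and its difference of −0.59 ± 0.29 had an adjusted p of 0.45. Without the 3 arrays limma called 1 of the 33, Acot4 at −1.53 ± 0.41 (adjusted p = 0.0461; 0.693% of all genes called lower), with the rest still uncalled.

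**Figure D4:**
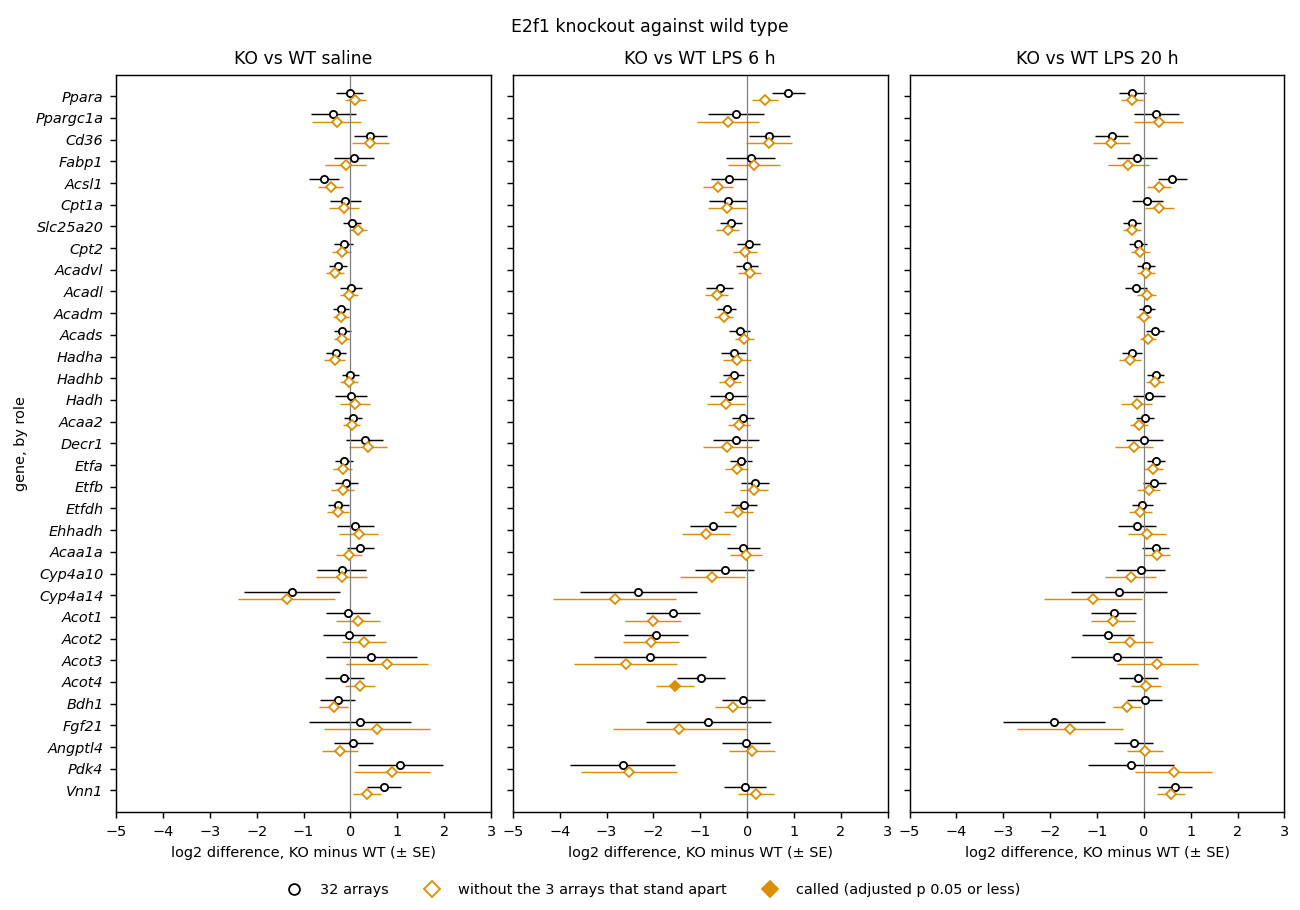
Log2 difference ± moderated SE of each of the 33 genes, knockout minus wild type, on saline, at 6 h and at 20 h of LPS, over all 32 arrays (black circles) and without the 3 arrays that stand apart (orange diamonds). The 1 filled point, Acot4 at 6 h, was called without those arrays.

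Among 93 other genes of the pathway, 85 were tested. At 20 h 42 were called in knockouts, 34 lower (14.6% of all genes) and 8 higher (11.7%), with a median change of −0.52 (−0.09 over all genes). In wild type 58 were called, 45 lower (20.2% of all genes) and 13 higher (16.3%), with a median of −0.76 (−0.03 over all genes). At 6 h 0 were called in knockouts (2.60% of all genes) and 16 in wild type, 8 lower (16.1% of all genes) and 8 higher (12.4%). The knockout counts without the 3 arrays were 27 at 6 h (20 lower, 7 higher; 31.2% of all genes called) and 52 at 20 h (41 lower, 11 higher; 41.1%). Cidec, a lipid droplet protein that adipocytes also make, rose most: by 4.38 ± 0.80 at 20 h in knockouts (adjusted p = 0.00021) and in wild type by 3.57 ± 0.89 at 6 h and 6.41 ± 0.80 at 20 h (adjusted p = 6.82e-07). The 3 other adipocyte markers tested, Adipoq, Retn and Cfd, stood well above background on 6, 4 and 21 of 32 arrays and were not called in the 4 comparisons with saline. Their summed level at 20 h lay between −5.55 and −0.67 in knockouts, against −4.04 to 4.99 on saline, and between −4.32 and −1.13 in wild type, against −4.91 to −0.05 on saline; its part in the Cidec values was not tested. Cidea, of the same family, rose by 4.73 ± 0.96 in wild type at 20 h.

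At 20 h in knockouts Cyp4f14 fell by 2.99 ± 0.38 and Pdk1, another pyruvate dehydrogenase kinase, by 2.99 ± 0.45; Abcd2, a peroxisomal fatty acid transporter, was well above background on 0 of 6 LPS arrays and 4 of 6 saline arrays. At 20 h in wild type Cyp4f15 fell by 4.01 ± 0.50 (adjusted p = 6.68e-07) and Klb, the co-receptor of Fgf21, by 3.85 ± 0.57 (adjusted p = 6e-06). At 6 h in wild type Ppargc1b, a coactivator, fell by 2.45 ± 0.53, Acsl3, an acyl-CoA synthetase, fell by 2.17 ± 0.43, and Pdk3 rose by 2.07 ± 0.44, well above background on 3 of 4 LPS arrays and 2 of 6 saline arrays.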

How the data were processed

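RNA of 32 mouse livers was labelled with Cy3 and hybridised, 1 array per mouse, per the labels. The authors' scanner files give spot intensity values, made with Feature Extraction 10.7.1.1 per the file headers, of which the background-corrected processed signal was used; the authors' deposited log2 value table served as an alternative, with its normalization not stated. Control and outlier spots were left out, log2 signals were set against the 75th percentile of each array, spots were averaged per probe, probes had to exceed background clearly on 4 or more arrays, and a gene was represented by its brightest probe. Group means over all 32 arrays were fitted with limma 3.58.1 in R 4.3.3 (lmFit, eBayes; two-sided), in 11 comparisons with Benjamini-Hochberg adjustment over 19199 genes, called at 0.05. Probe coordinates come from the design (mm9). The number of arrays limits the precision. The p-values rest on the spread between arrays within groups, pooled over all groups. With 1 array per mouse and no block in the main fit, that spread holds mouse, labelling, slide and scan date together. The fit was tested on simulated data with independent normal noise and no array, slide or scan effects. That test cannot speak to such effects or to arrays that stand apart. All 33 members are described; from the other pathway genes, up to 4 called genes with the largest change in each comparison with saline are named. The 33 members and the other lists were chosen with earlier results of these data known. Alternatives were other normalizations, background correction, filters, probe rules, blocks for slide, scan date and replicate number, array weights, and leaving out arrays.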

Additional observations from a re-analysis of the deposited data

Results flagged for a closer look

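Of 198 groups of 4 or 6 arrays tested, 10 held an array far from the others of its group by Dixon's test, where chance flags about 1 in 20 groups; 3 of the 10 lie on the 3 arrays that stand apart. On KO LPS 20 h replicate 4, Acot3 read −5.87, against −1.82 to 0.27 in its group, and Acsl1 read 6.86, against 4.73 to 5.37. On KO saline replicate 1, Vnn1 read 3.17, against 0.62 to 1.22. On KO LPS 6 h replicate 2, Acot2 read −4.65, against −3.64 to −3.48. In wild type Fgf21 read −7.67 on saline replicate 3, against −0.19 to 1.82, and −0.13 on LPS 20 h replicate 4, against 2.07 to 3.17. Hadh read 2.28 on WT LPS 20 h replicate 1, against 3.17 to 3.31, and Acsl1 read 5.89 on WT LPS 20 h replicate 2, against 4.32 to 4.88. Cd36 read −1.01 on WT saline replicate 2, against −0.23 to 0.13, and Vnn1 read 2.96 on WT LPS 6 h replicate 1, against 2.39 to 2.45.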

How the results depend on the processing

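Of 64 called results of single genes, 52 stayed called whichever array of the groups compared was left out. Single arrays were left out only for the comparisons that hold their group. Leaving out single arrays gave 0 to 2 called genes of the 33 at 6 h in knockouts, 1 to 6 at 6 h in wild type, 12 to 15 at 20 h in knockouts, 17 to 19 at 20 h in wild type, 9 to 15 between 20 h and 6 h in knockouts and 14 to 16 in wild type, and 0 in the comparisons of genotypes and of their responses. Array weights gave 7 called genes at 6 h in knockouts, 8 at 6 h in wild type, 17 between 20 h and 6 h in knockouts and 3, all lower, in knockouts against wild type at 6 h. Without the 3 arrays that stand apart these counts were 5 at 6 h in knockouts and 1 between genotypes at 6 h. The shares of all genes called with array weights are not given, so the counts with weights cannot be set against them. With slide as a block 3 genes were called at 6 h in wild type, and with only the groups compared in the fit 8 there and 0 between 20 h and 6 h in knockouts, where fewer arrays estimate the spread. Other counts with an alternative over all arrays stayed within 1.5 times. The cause of these shifts was not tested. Directions turned in 4 results: Acaa1a at 20 h in knockouts with the mean over its probes (−0.85), Acot2 (−0.13) and Acot3 (−0.27) at 20 h in knockouts within the second scan date, and Etfb between 20 h and 6 h in wild type within the third (0.11), a date with no WT saline array. Other scalings moved the median of all genes by −0.16 to 0.20 (quantile normalization) and by −0.15 to 0.28 (median centring) on the log2 scale. Among results called in neither setting, 915 changes of sign were counted. The replicate numbers showed no pairing of the arrays: in no pair of groups were all correlations of same-numbered arrays above 0.1. The correlations were of deviations from the group means. They lay between −0.68 and −0.25 for knockouts at 6 h and on saline. In both of those groups replicate 1 stands apart and shifts the group mean, so these values cannot decide about pairing. With the replicate block 0 genes were called at 6 h in knockouts, 6 at 6 h in wild type, 14 at 20 h in knockouts and 18 in wild type.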
